A study of Rattus norvegicus with 8 samples.

Results

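The genes described here encode enzymes and carriers of the TCA cycle and of fatty acid oxidation, nearly all of them mitochondrial, read in peritoneal macrophages of rats that had received carbon nanotubes. They are 39 listed genes, chosen by symbol: 18 of the pyruvate dehydrogenase complex and the TCA cycle, and 21 of fatty acid oxidation. The deposited table holds 38 of them among 23487 genes, since no row carries the symbol Eci2, and 37 passed the filter on low counts among 12124 genes tested. Echs1 was in the table but below the filter.

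All rats were female Wistar rats given as 8 weeks old. Of these, 4 rats (numbers 3, 5, 10 and 11) had been injected into the peritoneal cavity with CNT-7, a needle-like multi-walled carbon nanotube (MWCNT-XNRI-7) that causes mesothelioma in rats, and 4 rats (numbers 1, 2, 12 and 13) with CNT-T, a tangled carbon nanotube that does not. After 15 days the macrophages were sorted by flow cytometry as CD11b/c high, His48 dim cells and their RNA was sequenced. The question is which macrophage genes distinguish the mesotheliomagenic from the non-mesotheliomagenic nanotube. Both groups carry a nanotube, and macrophages of untreated rats were not analysed here, so a difference below is CNT-7 over CNT-T and not a change from a resting state.

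Pyruvate dehydrogenase turns pyruvate into acetyl-CoA, which citrate synthase feeds into the TCA cycle, and the dehydrogenases of the cycle pass its electrons to the respiratory chain. Fatty acids reach the same acetyl-CoA by another route: the carnitine shuttle brings long-chain fatty acids into mitochondria, beta-oxidation shortens them in repeated rounds of dehydrogenation, hydration, dehydrogenation and thiolysis, and the electron transfer flavoprotein carries electrons from the acyl-CoA dehydrogenases to ubiquinone. In macrophages these pathways are known for their link to activation: fatty acid oxidation is commonly associated with alternatively activated cells, and breaks in the TCA cycle with classically activated cells.

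The promoters of 34 members were found in RefSeq (assembly GRCr8), as windows from 250 bases before to 50 bases after the transcript start. A direct repeat of AGGTCA with a spacing of 1 base (a DR1 element, the type of site bound by PPAR and RXR receptors, searched with at most 1 mismatch in each copy and on both strands) was present in 4 of the 34 windows, or 11.8%, against 2.45% of 27457 rat genes. These 4 genes are Slc25a20, Acadvl, Echs1 and Etfa. The ETS or GABP core ACTTCCG was likewise present in 4 (11.8%, against 6.97% of genes), namely Dlst, Mdh2, Cpt2 and Slc25a20. The ERR element TCAAGGTCA and the Nrf1 core GCATGCGC were found in 0 member windows (0.441% and 2.77% of genes, respectively). All searches used both strands, and a match of letters is a description of these windows only.

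The windows below are those of Slc25a20, which is among the genes that differed between the groups and holds both kinds of match, of Acadvl, with a DR1 match and no call, and of Hadha, which had the same mean level in both groups. Capitals mark the matches.
Slc25a20, chr8:118243323-118243622, plus strand: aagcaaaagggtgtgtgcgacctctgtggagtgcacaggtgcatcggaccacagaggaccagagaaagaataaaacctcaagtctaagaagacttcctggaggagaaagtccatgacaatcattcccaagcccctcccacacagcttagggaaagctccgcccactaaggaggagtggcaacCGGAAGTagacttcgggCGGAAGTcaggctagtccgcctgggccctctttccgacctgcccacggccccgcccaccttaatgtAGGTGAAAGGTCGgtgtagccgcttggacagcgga
Acadvl, chr10:55236656-55236955, minus strand: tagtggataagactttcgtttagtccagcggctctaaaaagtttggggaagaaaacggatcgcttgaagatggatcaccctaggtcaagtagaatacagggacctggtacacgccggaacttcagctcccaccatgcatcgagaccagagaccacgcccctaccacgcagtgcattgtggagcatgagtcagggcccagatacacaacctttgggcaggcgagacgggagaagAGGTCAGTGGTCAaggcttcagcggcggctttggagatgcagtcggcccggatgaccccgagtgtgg
Hadha, chr6:31907551-31907850, plus strand: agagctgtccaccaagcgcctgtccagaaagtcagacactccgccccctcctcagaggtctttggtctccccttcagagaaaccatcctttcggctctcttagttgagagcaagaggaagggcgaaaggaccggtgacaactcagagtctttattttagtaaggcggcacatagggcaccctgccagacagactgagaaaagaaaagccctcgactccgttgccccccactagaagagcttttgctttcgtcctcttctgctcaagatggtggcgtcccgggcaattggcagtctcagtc
In Slc25a20 the DR1 match begins 15 bases after the start, and the ETS cores, read on the opposite strand, begin 68 and 51 bases before it. In Acadvl the DR1 match begins 17 bases before the start. The Hadha window shares 200 bases with that of its partner subunit Hadhb, which is transcribed in the other direction from a start 301 bases away.

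Most members did not pass the test between CNT-7 and CNT-T. Of the 37 members tested, 5 (13.5%) passed the quasi-likelihood test of edgeR at a Benjamini-Hochberg adjusted p-value under 0.10, whereas 27.9% of all 12124 genes did. Etfdh, Slc25a20 and Acadm were higher in CNT-7, and Idh2 and Mdh1 were lower. Over all genes, 13.9% were higher and 14% lower. The groups of 4 rats did not overlap in the same 5 members, 3 above and 2 below, and in 24.9% of all genes. At an unadjusted p-value under 0.05 there were also 5 members, against 33.2% of all genes.

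The member differences were small as well as few. Their log2 fold changes ran from -0.35 to 0.38 with a median of 0.041, beside a median of 0.0083 over all genes. Of the members 24 were positive and 13 negative, and of all genes 6201 were positive and 5923 negative. All 37 lay between the 10th and the 90th percentile of all genes (-0.51 and 0.53), and 28 lay between the quartiles (-0.18 and 0.20). The median size of the log2 fold change, whatever its sign, was 0.111 in members and 0.19 in all genes. The 95% interval of each gene's difference stayed inside a 2-fold change in either direction for 37 of 37 members, and inside a 1.5-fold change for 35. The outermost bounds were -0.57 (Idh2) and 0.78 (Acaa1a). Members were measured from more counts (median 60.9 CPM, counts per 1000000 counts in a library, against 24.4) and with a smaller standard error (median 0.0817 on the log2 scale, against 0.12) than all genes tested. Together they took between 0.279% and 0.312% of the counts in CNT-7 rats and between 0.284% and 0.302% in CNT-T rats, ranges that overlap. As these are bulk samples, fewer cells of a type and less RNA per cell cannot be told apart.

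**Figure D1:**
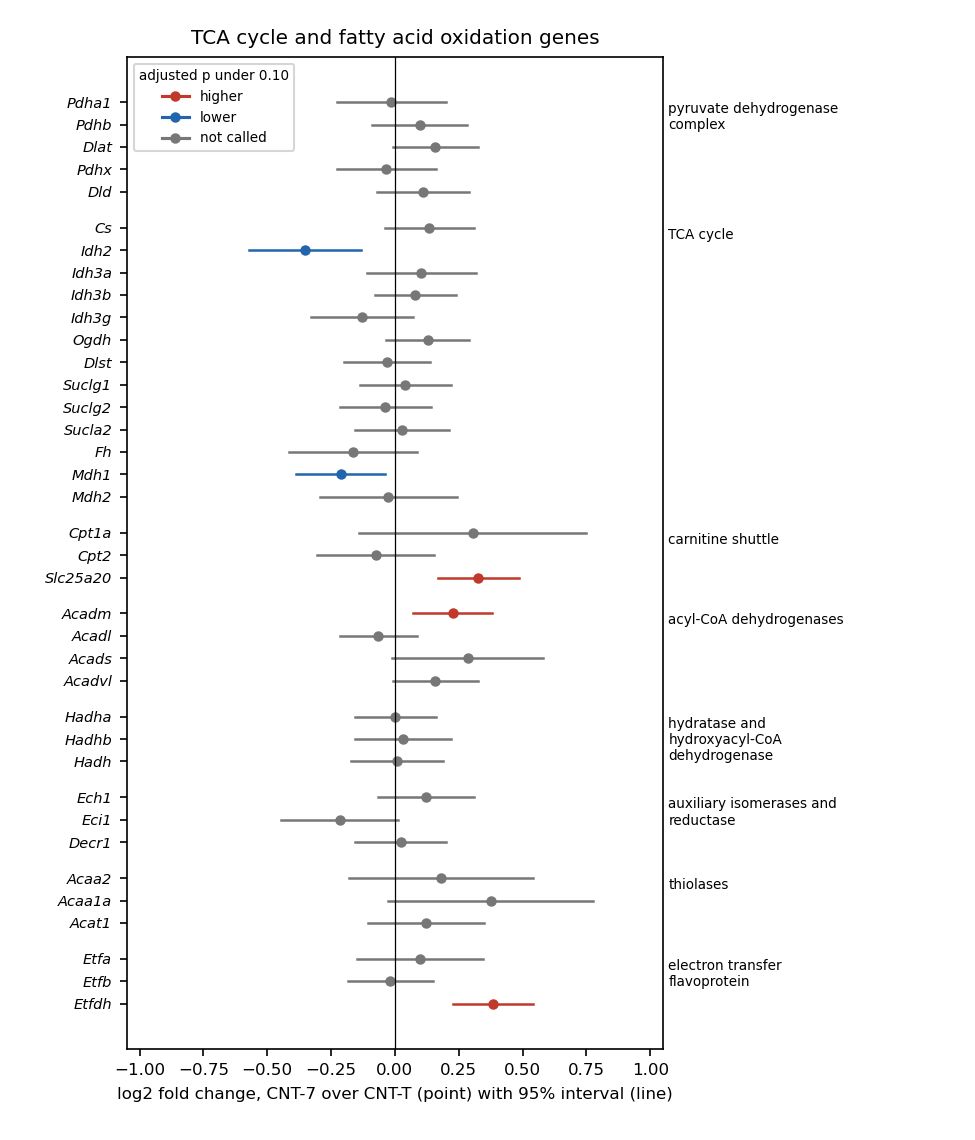
Log2 ratio of CNT-7 to CNT-T (points) with its 95% interval (lines, not adjusted for the number of genes) for the 37 members tested, in order of their role. Etfdh, Slc25a20 and Acadm (red) lie above 0 and Idh2 and Mdh1 (blue) below it, while the other 32 (grey) did not pass an adjusted p-value of 0.10.

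**Figure D2:**
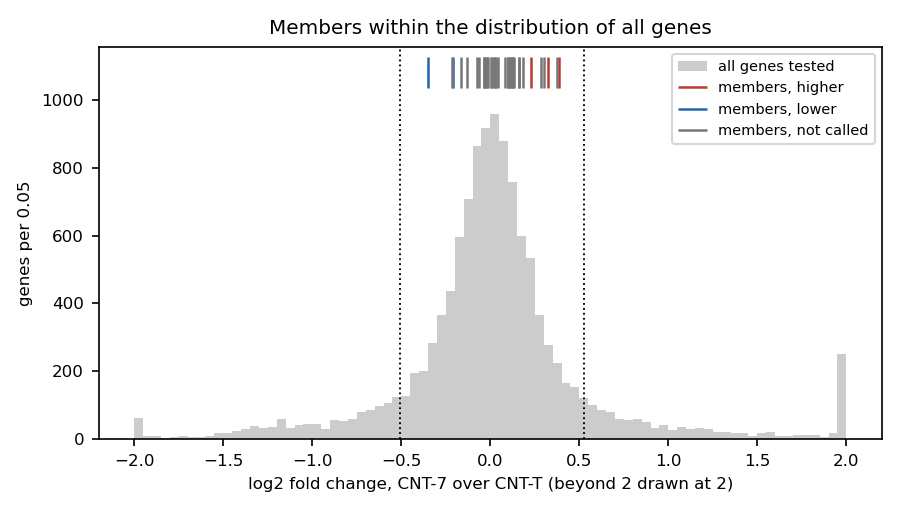
Distribution of the log2 fold change (CNT-7 over CNT-T) in the 12124 genes tested (histogram, with values beyond 2 in either direction drawn at 2) and the members (marks). Dotted lines stand at the 10th and 90th percentiles of all genes, and all 37 members lie between them.

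The pyruvate dehydrogenase complex had no called subunit among 5 tested, by edgeR or DESeq2, and 0 at an unadjusted p-value under 0.05. The shares over all genes were 27.9% (edgeR) and 33.2%, and DESeq2 called 3633 of 12124. Thus 0 of 5 says little about the complex. Pdha1 (ENSRNOG00000025383), the catalytic E1 alpha subunit, was at 94.3, 86.9, 82.8 and 102 CPM in CNT-7 rats 3, 5, 10 and 11 and at 87.1, 83.1, 95.04 and 105 CPM in CNT-T rats 1, 2, 12 and 13. These ranges overlap throughout, and the log2 fold change was -0.014 with an adjusted p-value of 0.94 (edgeR). Pdhb, its E1 beta partner, gave 0.10, Dlat, the E2 acetyltransferase, 0.16, Pdhx, which tethers the E3 enzyme, -0.03, and Dld, the E3 dihydrolipoamide dehydrogenase that the 2-oxoglutarate dehydrogenase complex also uses, 0.11. Dlat had the lowest adjusted p-value of them, 0.17 by edgeR, with an interval from -0.01 to 0.33.

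Citrate synthase (Cs, ENSRNOG00000023520), which opens the cycle, was at 195, 185, 175 and 196 CPM in CNT-7 rats and at 166, 192, 165 and 162 CPM in CNT-T rats. A single CNT-T rat, rat 2, lay within the CNT-7 range, and the log2 fold change of 0.13 had an adjusted p-value of 0.26 (edgeR). Idh3a, the catalytic subunit of the NAD-dependent isocitrate dehydrogenase, was at 67.7, 56.9, 68.1 and 69.8 CPM in CNT-7 rats and at 54.9, 70.3, 59.8 and 59.3 CPM in CNT-T rats. CNT-7 rat 5 was low and CNT-T rat 2 was high, so the groups overlapped, and the adjusted p-value was 0.49 by edgeR for a log2 fold change of 0.10. The regulatory subunits Idh3b and Idh3g gave 0.08 and -0.13, neither of them called.

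Idh2 (ENSRNOG00000013949), the mitochondrial NADP-dependent isocitrate dehydrogenase, fell in CNT-7. It was at 152, 143, 131 and 177 CPM in CNT-7 rats and at 179, 209, 196 and 186 CPM in CNT-T rats. The groups did not overlap, but the highest CNT-7 rat (rat 11, 177) and the lowest CNT-T rat (rat 1, 179) were close. The means were 151 ± 19.3 and 193 ± 12.7 CPM (SD, n = 4 each), and the level fell by 21.7%, a log2 fold change of -0.35 ± 0.098 (SE) with an adjusted p-value of 0.031 in edgeR. It remained called when any of the 8 rats was left out.

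Ogdh, the E1 subunit of 2-oxoglutarate dehydrogenase, was at 255, 261, 252 and 280 CPM in CNT-7 rats and at 248, 257, 229 and 224 CPM in CNT-T rats. CNT-T rat 2 overlapped with the CNT-7 range, and the log2 fold change of 0.13 had an adjusted p-value of 0.25 (edgeR). Dlst, the E2 subunit of the same complex, gave -0.03. The succinyl-CoA synthetase subunits were near 0, at 0.04 for Suclg1 (alpha), -0.04 for Suclg2 (the GDP-forming beta subunit) and 0.03 for Sucla2 (the ADP-forming beta subunit). Fumarase (Fh) gave -0.16 with an interval from -0.41 to 0.09.

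Mdh1 (ENSRNOG00000008103), the cytosolic malate dehydrogenase of the malate-aspartate shuttle, fell by 13.7%. It was at 131, 126, 106 and 123 CPM in CNT-7 rats and at 140, 149, 138 and 136 CPM in CNT-T rats, with no overlap. This was the call nearest to the threshold, with a log2 fold change of -0.21 ± 0.078 (SE) and an adjusted p-value of 0.087 in edgeR. It was lost in 7 of the 8 fits that left out a rat, all but the one without CNT-7 rat 3, and without the filter on low counts, where the adjusted p-value was 0.11. Mdh2, the mitochondrial enzyme that closes the cycle, was at 162 to 210 CPM in CNT-7 rats and at 153 to 216 CPM in CNT-T rats, with a log2 fold change of -0.03. For the pyruvate dehydrogenase complex and the cycle together, 0 of 18 were higher and 2 were lower (11.1%, where 27.9% of all genes were called and 14% were lower), with 9 positive and 9 negative log2 fold changes and a median of 0.0071.

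**Figure D3:**
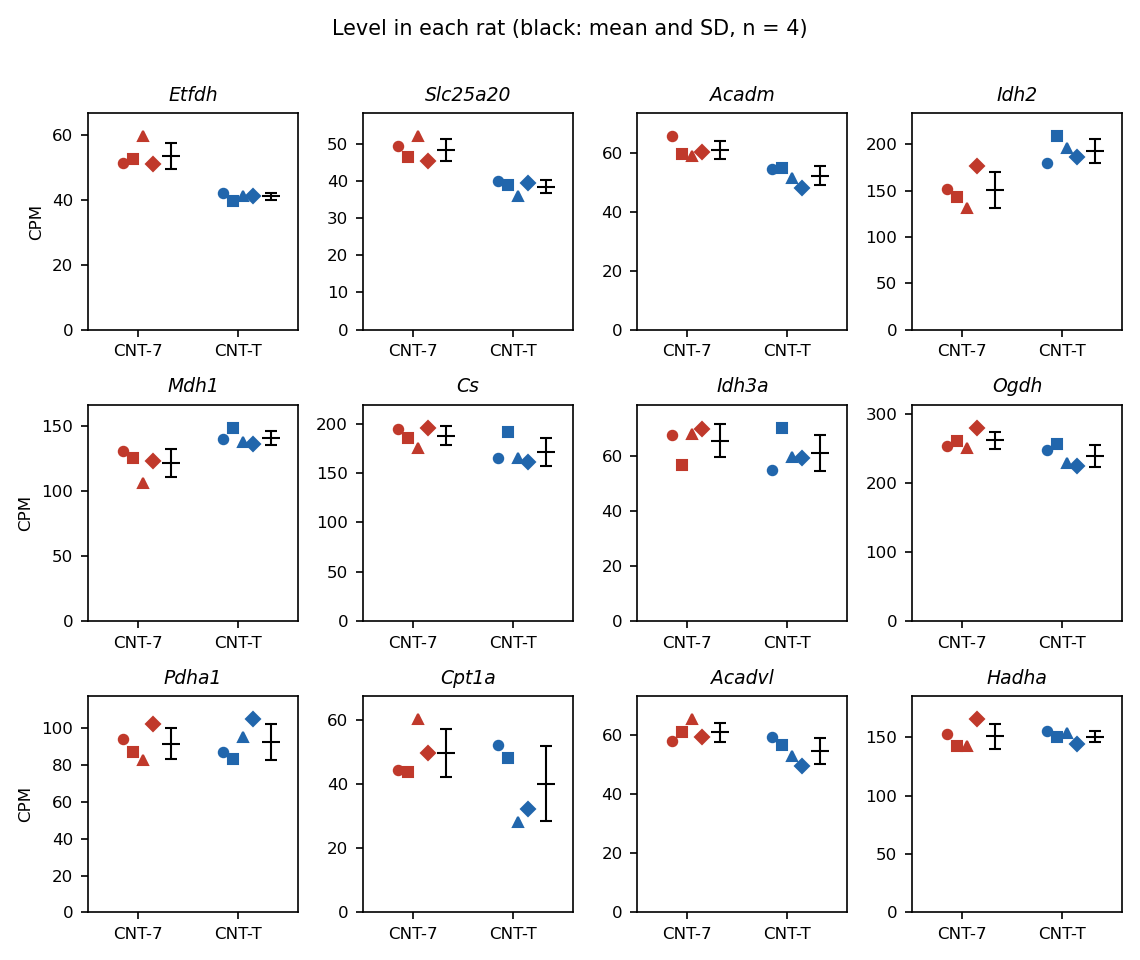
CPM in each rat (linear axes) for the members given with values in every rat. Points are rats of CNT-7 (circle, square, triangle and diamond for rats 3, 5, 10 and 11) and CNT-T (the same symbols for rats 1, 2, 12 and 13), and bars show the mean and SD of 4 rats. The groups separate in Etfdh, Slc25a20, Acadm, Idh2 and Mdh1 and overlap in the other panels.

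Fatty acid oxidation had 3 of 19 tested members higher in CNT-7 and 0 lower (15.8%, where 27.9% of all genes were called and 13.9% were higher), with 15 positive and 4 negative log2 fold changes and a median of 0.12. Over all genes, 6201 were positive and 5923 negative. The 19 members were read in the same rats, so their signs are not independent, and the split was not tested. The higher genes encode a carrier, an acyl-CoA dehydrogenase and the enzyme that passes electrons from the electron transfer flavoprotein to ubiquinone. Slc25a20 (ENSRNOG00000020288), the carnitine-acylcarnitine translocase, was at 49.3, 46.5, 51.9 and 45.2 CPM in CNT-7 rats and at 40.0, 38.8, 35.8 and 39.3 CPM in CNT-T rats. The lowest CNT-7 rat stood above the highest CNT-T rat, and the rise of 25.4% (log2 fold change 0.33 ± 0.071 SE, adjusted p-value 0.010 in edgeR) remained called without any of the 8 rats.

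Cpt1a (ENSRNOG00000014254), the outer membrane carnitine palmitoyltransferase that malonyl-CoA inhibits, was the least precise member. It was at 44.5, 43.9, 60.1 and 49.7 CPM in CNT-7 rats and at 52.1, 48.0, 28.1 and 32.1 CPM in CNT-T rats. CNT-T rats 12 and 13 were the lowest, whereas CNT-T rats 1 and 2 lay within the CNT-7 range. The log2 fold change of 0.30 had a standard error of 0.198 and an interval from -0.14 to 0.75 (adjusted p-value 0.32, edgeR). Cpt2, the inner membrane enzyme, averaged 10.7 CPM in CNT-7 rats and 11.3 CPM in CNT-T rats, and gave -0.08.

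Among the acyl-CoA dehydrogenases, Acadm (ENSRNOG00000009845), the medium-chain enzyme, was at 65.4, 59.5, 58.9 and 60.02 CPM in CNT-7 rats and at 54.4, 54.9, 51.2 and 47.9 CPM in CNT-T rats. The groups did not overlap, and the rise of 17.0% had a log2 fold change of 0.23 ± 0.069 (SE) and an adjusted p-value of 0.044 in edgeR. The call was lost without CNT-7 rat 3 (adjusted p-value 0.124) and without CNT-T rat 12 (0.116). Acadvl (ENSRNOG00000018114), the very-long-chain enzyme, was at 58.0, 61.1, 65.3 and 59.4 CPM in CNT-7 rats and at 59.4, 56.6, 52.9 and 49.4 CPM in CNT-T rats. CNT-T rat 1 overlapped with CNT-7, and the log2 fold change of 0.16 was not called (adjusted p-value 0.17, edgeR) unless that rat was left out (0.0998). Acads, the short-chain enzyme, showed the same arrangement, with CNT-T rat 1 at 22.1 CPM among CNT-7 rats of 19.3 to 22.6 CPM and the other CNT-T rats at 14.3 to 16.5 CPM. Its log2 fold change of 0.29 had an adjusted p-value of 0.16, and of 0.014 without CNT-T rat 1 (edgeR). Acadl, the long-chain enzyme, gave -0.06.

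The hydratase and hydroxyacyl-CoA dehydrogenase steps, listed with the thiolase subunit Hadhb, had no called gene among the 3 tested, by edgeR or DESeq2. At an unadjusted p-value under 0.05 there were 0. Over all genes the shares were 27.9% (edgeR) and 33.2%, and DESeq2 called 3633 of 12124, so 0 of 3 says little about these steps. Hadha (ENSRNOG00000024629), the alpha subunit of the trifunctional protein, was at 153, 143, 142 and 166 CPM in CNT-7 rats and at 155, 150, 153 and 144 CPM in CNT-T rats. Its log2 fold change was 0.0017, with an interval from -0.16 to 0.16 and an adjusted p-value of 0.99 (edgeR). Hadhb, the thiolase subunit of the same protein, gave 0.03, and Hadh, the hydroxyacyl-CoA dehydrogenase for shorter chains, 0.01.

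Echs1, the short-chain enoyl-CoA hydratase, was listed at 0 counts in all 4 CNT-7 rats and in CNT-T rat 2, and at 298, 95 and 190 counts in CNT-T rats 1, 12 and 13. Every other member in the table had counts in all 8 rats. A count of 0 from transcript estimates can be a failed estimate, so no fold is given. Echs1 was not tested in the analysis above. It was tested in 6 of 15 fits, without the filter on low counts or with a rat left out, and edgeR called it lower in all 6. Where a rat was left out, it passed the filter only through CNT-T rats 1, 12 and 13, while every CNT-7 rat was at 0. Its direction in those fits was fixed by how it entered them. The 6 calls are therefore not support for a difference.

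The auxiliary enzymes for unsaturated chains had no called gene among 3 tested, by edgeR or DESeq2, and 0 at an unadjusted p-value under 0.05. Ech1, the dienoyl-CoA isomerase, gave 0.12 and Decr1, the dienoyl-CoA reductase, 0.02. Eci1, the enoyl-CoA isomerase, gave -0.22 with an interval from -0.44 to 0.01, and was called only without CNT-7 rat 11 (adjusted p-value 0.091, edgeR). The 3 thiolase genes other than Hadhb all had positive values without a call by either tool (0 at an unadjusted p-value under 0.05). They were at 0.18 for Acaa2, 0.37 for Acaa1a and 0.12 for Acat1. Over all genes, shares were 27.9% (edgeR) and 33.2%, and DESeq2 called 3633 of 12124. Beside these, 0 of 3 says little about the auxiliary enzymes or the thiolases. Acaa1a, the peroxisomal thiolase, was the member with the largest uncalled value, and CNT-T rat 2 at 15.3 CPM stood below the other CNT-T rats, which were at 25.9 to 28.8 CPM. CNT-7 rats were at 27.6 to 35.1 CPM, and the adjusted p-value was 0.18 (edgeR). Rats have a closely similar gene, Acaa1b, which has no row under that symbol, so the estimate for Acaa1a may include its reads.

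Etfdh (ENSRNOG00000009538), the electron transfer flavoprotein dehydrogenase that hands electrons to ubiquinone, had the largest rise. It was at 51.2, 52.4, 59.5 and 51.1 CPM in CNT-7 rats and at 42.2, 39.7, 41.2 and 41.1 CPM in CNT-T rats. The groups did not overlap, and CNT-7 rat 10 was the highest. The means were 53.5 ± 3.99 and 41.0 ± 1.02 CPM (SD, n = 4 each), a rise of 30.5% (log2 fold change 0.38 ± 0.070 SE, adjusted p-value 0.0047 in edgeR) that remained called without any of the 8 rats. The flavoprotein subunits that feed it, Etfa and Etfb, gave 0.10 and -0.02 and were not called.

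**Figure D4:**
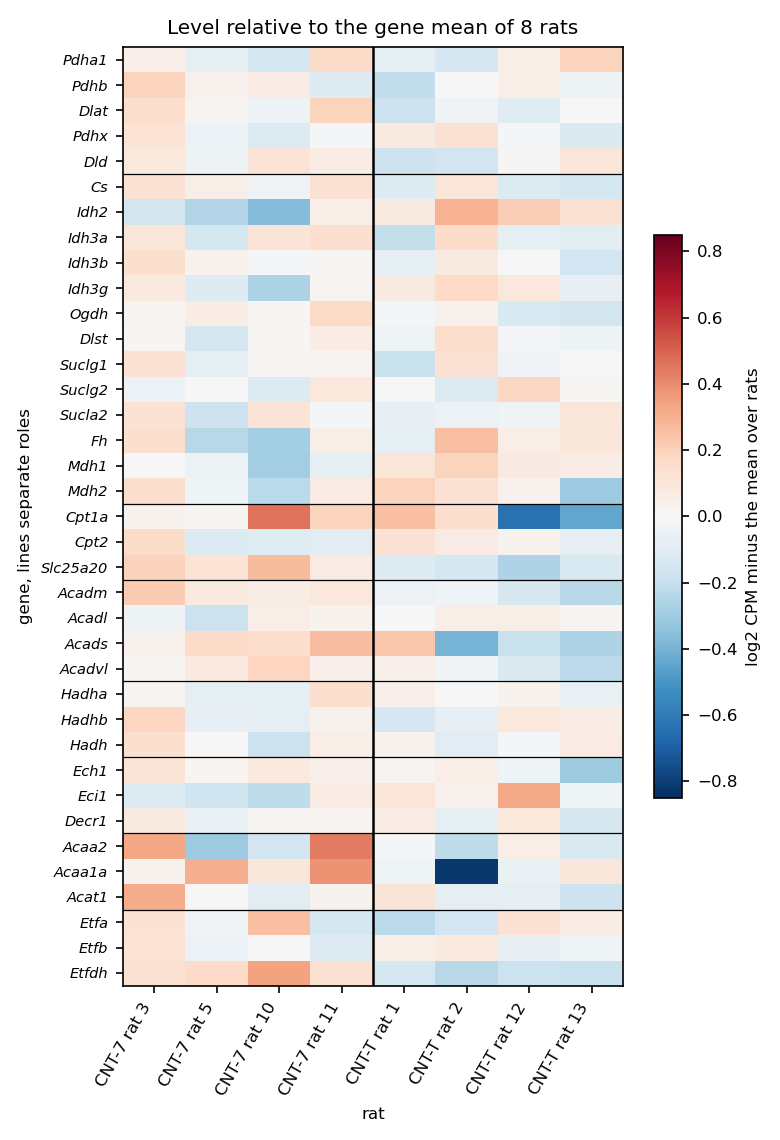
Log2 CPM of each of the 37 members (rows, in order of role) in each rat (columns), as the difference from that gene's mean over 8 rats. Most rows show no block of colour by group. The darkest cells belong to Acaa1a in CNT-T rat 2 and Cpt1a in CNT-T rat 12, and Etfdh and Slc25a20 are red in all CNT-7 rats and blue in all CNT-T rats.

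When log2 CPM of each member was centred on its mean and averaged over the members, the rats of both groups overlapped. The 19 fatty acid oxidation genes averaged 0.108, -0.0074, 0.056 and 0.088 in CNT-7 rats 3, 5, 10 and 11 and 0.021, -0.10, -0.052 and -0.11 in CNT-T rats 1, 2, 12 and 13, so that CNT-7 rat 5 stood below CNT-T rat 1. The 18 pyruvate dehydrogenase and TCA cycle genes averaged 0.077, -0.066, -0.081 and 0.057 in CNT-7 rats and -0.049, 0.073, 0.013 and -0.025 in CNT-T rats. In these genes the CNT-7 rats spanned the whole CNT-T range, with rats 3 and 11 high and rats 5 and 10 low. These averages are descriptions and were not tested.

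Other genes of the TCA cycle and of pyruvate use were called in 7 of 36 tested (19.4%, against 27.9% of all genes), 5 higher and 2 lower, with a median log2 fold change of 0.036. The dicarboxylate carrier Slc25a10, which exchanges malate and succinate for phosphate, was lower, at 24.3 ± 5.34 CPM in CNT-7 and 53.3 ± 7.87 CPM in CNT-T (SD, n = 4 each; log2 fold change -1.13, adjusted p-value 0.0017, edgeR). Pck2, the mitochondrial phosphoenolpyruvate carboxykinase, was also lower (-0.57, adjusted p-value 0.025). The pyruvate dehydrogenase kinases Pdk1 (0.46, adjusted p-value 0.0082) and Pdk2 (0.51, adjusted p-value 0.064), which switch the complex off by phosphorylation, were higher, as were the mitochondrial malic enzyme Me2 (0.44), the cytosolic isocitrate dehydrogenase Idh1 (0.38) and the citrate carrier Slc25a1 (0.29). Of these, Slc25a1 (adjusted p-value 0.095), Idh1 and Pdk2 lost their calls in 9, 5 and 4 alternative fits, with adjusted p-values of up to 0.208, 0.163 and 0.171. Idh1 and Idh2, which catalyse the same reaction in different compartments, were thus called in opposite directions. Idh1 was at 115, 170, 164 and 135 CPM in CNT-7 rats and at 101, 104, 119 and 124 CPM in CNT-T rats, where CNT-7 rat 3 lay within the CNT-T range. All 6 tested kinases and phosphatases of pyruvate dehydrogenase had positive values. Among them was the opposing phosphatase Pdp1, named after its values were seen. It was not called (0.33, interval 0.01 to 0.64, adjusted p-value 0.14, edgeR).

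Succinate dehydrogenase, which belongs to the cycle and to the respiratory chain, was listed with its assembly factors. Of these 7 genes, 0 were called by edgeR or DESeq2, and 0 had an unadjusted p-value under 0.05. The shares over all genes were 27.9% (edgeR) and 33.2%, and DESeq2 called 3633 of 12124. The median log2 fold change of the 7 genes was 0.12. The groups did not overlap in 3 of the 7 genes, with CNT-7 above, while 24.9% of all genes did not overlap in either direction. These 3 genes are Sdha (0.14, adjusted p-value 0.17), Sdhb (0.12, adjusted p-value 0.23) and the assembly factor Sdhaf2 (0.12, adjusted p-value 0.21), named after their values were seen.

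Other genes of fatty acid oxidation were called in 7 of 34 tested (20.6%, against 27.9% of all genes), 4 higher and 3 lower, with a median of 0.041. Of the 8 peroxisomal genes tested, 3 were higher and 0 lower (37.5% called, against 27.9% of all genes). Peroxisomes shorten very-long-chain and branched fatty acids before mitochondria take over. Hsd17b4, the peroxisomal D-bifunctional protein, was at 159, 171, 208 and 140 CPM in CNT-7 rats and at 102, 111, 99.0 and 101 CPM in CNT-T rats, without overlap (log2 fold change 0.72, adjusted p-value 0.0026, edgeR). The acyl-CoA oxidase Acox3 (0.51, adjusted p-value 0.00085) was higher too. Ehhadh, the L-bifunctional protein, named after its values were seen because its mean is under 1 CPM, had 25 to 52 counts in CNT-7 rats and 15 to 20 counts in CNT-T rats (adjusted p-value 0.016). The ketone body enzyme Bdh1 was higher (0.40, adjusted p-value 0.016) and Oxct1, which activates ketone bodies for oxidation, was lower (-0.54, adjusted p-value 0.024). Acad11 (-0.74, adjusted p-value 0.011) and Ivd (-0.34, adjusted p-value 0.036), acyl-CoA dehydrogenases outside the main chain of beta-oxidation, were lower, with the call of Ivd lost without CNT-T rat 12 (0.102).

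Regulators of these pathways were called in 7 of 12 tested (58.3%, against 27.9% of all genes), 5 higher and 2 lower. Like the other lists, this one was written with earlier results of these data known, so its share is a description and no independent result. The nuclear receptors Ppard, which activates fatty acid oxidation genes, and Esrra, which activates mitochondrial genes, had log2 fold changes of 0.56 (adjusted p-value 0.010, edgeR) and 0.37 (adjusted p-value 0.023). Ppard was at 25.9, 37.4, 36.8 and 29.8 CPM in CNT-7 rats and at 20.8, 23.4, 22.7 and 21.1 CPM in CNT-T rats, without overlap. The coactivator Ppargc1b (0.61, adjusted p-value 0.060) and the mitochondrial carrier Ucp2 (0.33, adjusted p-value 0.039) were higher, calls that were lost without any of 4 rats (CNT-7 rats 3 and 11, CNT-T rats 2 and 12; up to 0.159) and without CNT-7 rat 5 or CNT-T rat 2 (up to 0.109), respectively. The corepressor Nrip1 (-0.48, adjusted p-value 0.016) and the respiratory gene activator Nrf1 (-0.29, adjusted p-value 0.025) were lower. Pparg, named after its values were seen because its mean is under 1 CPM, had 40, 32, 29 and 19 counts in CNT-7 rats and 0, 3, 2 and 4 counts in CNT-T rats (adjusted p-value 0.0016, edgeR). Ppara, Ppargc1a and Pdk4 were below the filter, with at most 5, 10 and 11 counts in any rat.

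**Figure D5:**
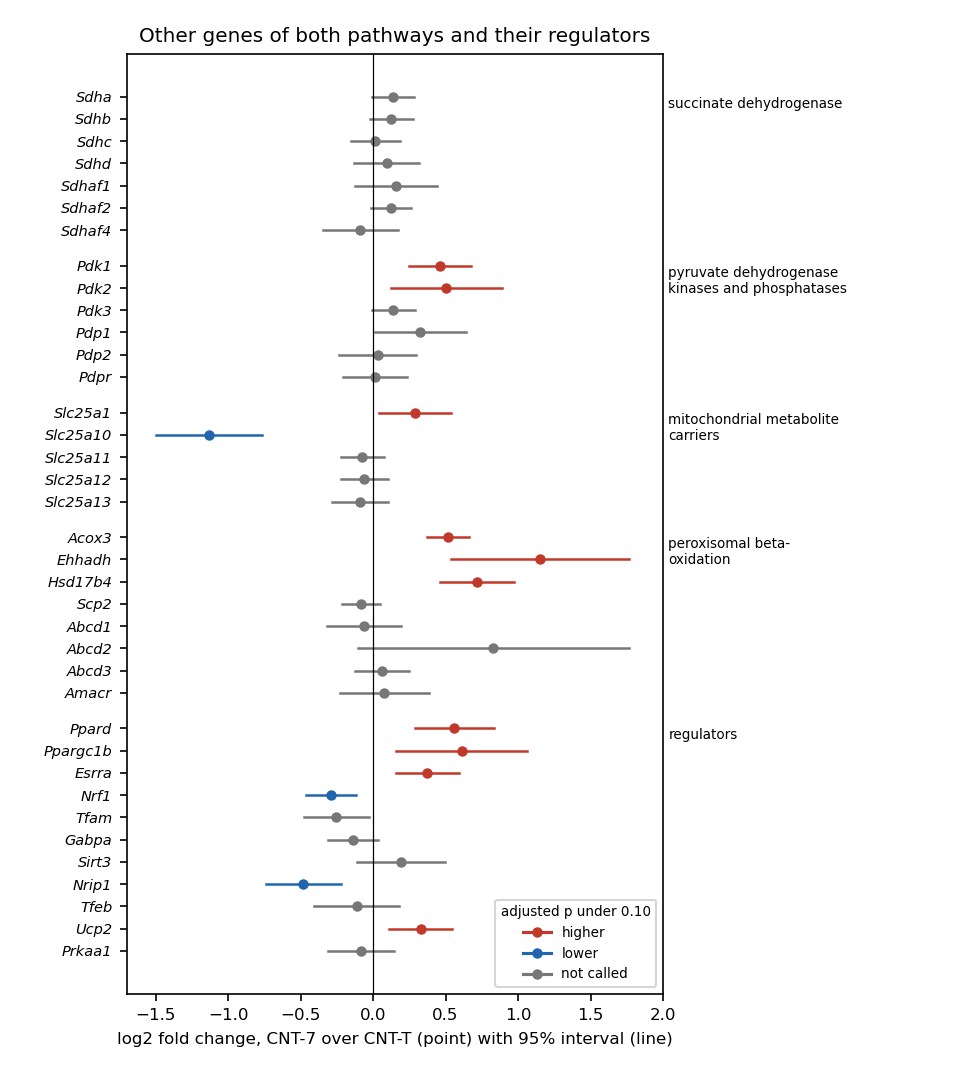
Log2 ratio of CNT-7 to CNT-T (points) with its 95% interval (lines, not adjusted for the number of genes) for succinate dehydrogenase genes, pyruvate dehydrogenase kinases and phosphatases, mitochondrial metabolite carriers, peroxisomal genes and regulators. Pparg, whose counts in CNT-T rats were 0 to 4, is not drawn. Slc25a10 lies lowest, at -1.13, and 3 of the 8 peroxisomal genes are red.

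Lists of general mitochondrial genes were examined as well. Over all genes, 27.9% were called by edgeR and 33.2% had an unadjusted p-value under 0.05, and DESeq2 called 3633 of 12124. Of 19 genes for mitochondrial membranes, import and chaperones, 0 were called by edgeR, with a median of -0.046, and 1 (Hspd1, a chaperone, named after its values were seen) had an unadjusted p-value under 0.05 and was called lower by DESeq2. Of the 13 protein genes encoded by mitochondrial DNA, 0 were called by edgeR, with a median of -0.20, and 0 had an unadjusted p-value under 0.05, while DESeq2 called 1 (ND6, likewise named afterwards) lower. The mitochondrially encoded genes took between 2.98% and 4.29% of the counts in a rat.

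Other features of the same libraries moved with the groups. All 10 proliferation genes were called lower in CNT-7, where 14% of all genes were lower. Their sum was 406 to 933 CPM in CNT-7 rats and 1387 to 1546 CPM in CNT-T rats. Of the 10 macrophage markers, all present at high levels, 1 was higher and 6 were lower (70% called, against 27.9% of all genes). Cd14 was higher, and Cd68, Adgre1, Csf1r, C1qb, C1qc and Fcgr1a were lower. The sums were 18611 to 24819 CPM and 26892 to 39125 CPM. Most of each sum was Lyz2, which was not called (adjusted p-value 0.1002, edgeR), at 12197 to 19618 CPM in CNT-7 rats and 20529 to 30098.5 CPM in CNT-T rats. The sums of T and NK cell markers were 5.47 to 13.2 CPM and 4.85 to 5.70 CPM (highest in CNT-7 rat 5). Those of eosinophil markers were 0.18 to 9.33 CPM (highest in CNT-7 rat 3) and 0.11 to 0.36 CPM. Those of neutrophil markers were 33.8 to 62.9 CPM and 26.2 to 68.4 CPM. Most of the neutrophil sum was a single gene, Csf3r, at 29.1 to 57.0 CPM in CNT-7 rats and 18.1 to 57.4 CPM in CNT-T rats. Of the markers of other cell types, 2 were called, and they are named after their values were seen. The T and NK cell marker Cd2 was higher, at 1.38 to 3.43 CPM in CNT-7 rats and 0.0978 to 0.297 CPM in CNT-T rats (adjusted p-value 0.0007, edgeR), and the neutrophil marker S100a8 was lower, at 1.34 to 3.25 CPM and 4.19 to 9.03 CPM (adjusted p-value 0.016). Neither overlapped between the groups, as was so for 24.9% of all genes. Cd2 was 1 of 3 T and NK cell markers tested and S100a8 1 of 5 neutrophil markers, where 27.9% of all genes were called. The other tested markers of these lists were not called and went both ways. Their log2 fold changes were 1.23 for S100a9, 1.26 for Cxcr2, 0.39 for Csf3r and -0.68 for Elane, and 0.39 for Ncr1 and -0.25 for Lck. The T cell markers Cd3e, Cd3d and Cd3g were below the filter and not tested. Their means were 0.81, 0.31 and 0.47 CPM in CNT-7 rats and 0.11, 0.064 and 0.12 CPM in CNT-T rats. CNT-7 rat 5 was the highest in each, and only Cd3e did not overlap between the groups. The part of these differences in the calls above was not tested. B cell markers summed to at most 2.78 CPM in any rat (CNT-7 rat 5), mast cell markers to at most 3 CPM, fibroblast markers to at most 1.47 CPM and mesothelial markers to at most 0.74 CPM, with Epx, Mpo, Wt1 and Upk3b at 0 in all rats. The libraries held 27195157 to 33732981 counts.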

How the data were processed

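RNA of sorted peritoneal macrophages from 8 rats was sequenced, and nothing in the labels pairs rats across groups. The authors ran the ARMOR workflow, quantified the reads with Salmon against the Ensembl rat cDNA (Rnor_6.0), imported the estimates with tximeta, and deposited estimated counts per gene as whole numbers, without normalization. Versions are not given in the sources used here. Such estimates split reads among similar transcripts, and no rounding was needed. From these counts, edgeR 4.0.16 in R 4.3.3 compared the groups by its quasi-likelihood test, with TMM normalization, filterByExpr (minimum count 10, minimum total 15) and Benjamini-Hochberg adjustment over 12124 genes, with a threshold of 0.10 on the adjusted p-value. CPM use TMM library sizes and no gene length, and are therefore not compared between genes. Standard errors are the log2 fold change over the square root of F, and averages over members use a prior count of 2. A floor of 3 counts is 0.0889 to 0.110 CPM, and covers counting error alone. Symbols were matched regardless of case (Idh3b is Idh3B in the table).

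Every member is named. Values in every rat are given for the called members with the largest changes, for entry or rate-setting steps (Cs, Idh3a, Ogdh, Pdha1, Cpt1a, Acadvl, Hadha) and for the member nearest to the threshold. Of other lists, called genes with a mean of at least 1 CPM are named, at most 5 in each direction. Members and lists were chosen with earlier results of these data known, and 1 gene of the other lists is not reported here. The scripts were tested on simulated counts. Alternatives were DESeq2 1.42.0, upper-quartile and RLE normalization, other filters and thresholds, the range of rat numbers as a term, and each rat left out. Averages over members were repeated with a prior count of 0.5 and as medians. Coordinates are given for the RefSeq promoter windows (GRCr8) only.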

Additional observations from a re-analysis of the deposited data

Results flagged for a closer look

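Among 74 groups of 4 rats (37 members in each condition), 5 held a rat whose gap to its nearest neighbour was a larger share of the range than Dixon's 95% critical value, where chance gives about 3.7. In Cs, CNT-T rat 2 was at 192 CPM and the other CNT-T rats at 162 to 166 CPM (ratio 0.861). The same rat was at 193 CPM in Dlst, against 169 to 173 CPM (0.837). In Idh3a, CNT-7 rat 5 was at 56.9 CPM and the other CNT-7 rats at 67.7 to 69.8 CPM (0.838). In Cpt2, CNT-7 rat 3 was at 12.2 CPM, against 10.1 to 10.3 CPM (0.907). In Etfdh, CNT-7 rat 10 was at 59.5 CPM, against 51.1 to 52.4 CPM (0.846), and that group did not overlap with CNT-T.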

How the results depend on the processing

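No paired analysis was possible because the groups share no rat number. Etfdh, Slc25a20, Acadm, Idh2 and Mdh1 remained called with upper-quartile normalization, RLE size factors, DESeq2, at least 10 counts in every rat, and the range of rat numbers as a term. At an adjusted p-value under 0.05, 1 member was lower (Idh2), so that 1 gene of the pyruvate dehydrogenase complex and TCA cycle was called. Without the filter on low counts Mdh1 was lost and 1 such gene remained, although Echs1 was gained. A change of at least 2-fold left 0 members called (0 higher, 0 lower, 0 in the TCA cycle and 0 in fatty acid oxidation), 3 genes of the other lists in place of 21, and 1006 of the 3383 genes called over the whole table.

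Leaving out each rat gave 3 to 6 members called, 2 to 5 higher and 1 to 3 lower, with 1 to 2 of the pyruvate dehydrogenase complex and TCA cycle and 2 to 5 of fatty acid oxidation. Echs1 is counted among them where it was tested. The lowest count, 3, came without CNT-T rat 12. The highest, 6, came without CNT-7 rat 11, with Eci1 and Echs1 gained, and without CNT-T rat 1, with Acads and Acadvl gained. Mdh1 was lost in both of these fits. The other lists gave 16 to 23 calls, all genes 2578 to 3515, and the member median was 0.0044 to 0.078. Under the other alternatives it was 0.033 to 0.044, and the mean difference of the averages over members (0.060) was 0.052 to 0.060.

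The log2 fold change changed sign in 12 members under some alternative. None of the 12 was called, and the largest of their values was 0.041 in size. Leaving out a rat gave -0.072 to 0.049 for Pdha1, -0.080 to 0.0044 for Pdhx, -0.058 to 0.015 for Dlst, -0.012 to 0.090 for Suclg1, -0.083 to 0.016 for Suclg2, -0.0082 to 0.087 for Sucla2, -0.12 to 0.044 for Mdh2, -0.046 to 0.030 for Hadha, -0.025 to 0.067 for Hadhb, -0.038 to 0.067 for Hadh, -0.019 to 0.057 for Decr1 and -0.062 to 0.014 for Etfb. Hadha was also at -0.00019 with upper-quartile normalization, -0.0024 with RLE size factors, -0.0024 with DESeq2 and -0.0023 without the filter. The cause of these shifts was not tested. For members without a call, the 95% interval drawn for the gene holds the differences compatible with the data of 4 rats per group. The absence of a call is therefore not evidence of no difference.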
